A study of Homo sapiens with 30 samples.

Results

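The genes described here encode the factors that start and extend protein chains on the ribosome, with their kinases, methyltransferases and binding proteins. They are the 73 rows, of 27630 in the deposited count tables, whose symbol is EIF followed by a digit from 1 to 6 or EEF followed by 1 or 2. The rule uses symbols and no measured value, though the family was chosen with earlier results of these data known. A filter on low counts kept 69 of them among 16504 rows in all. The other rows were EIF1AY, EIF4E1B and the pseudogenes EIF3IP1 and EEF1DP3. EIF1AY, the Y-linked copy of eIF1A, and EIF3IP1 had 0 counts in each of the 8 libraries, which allows up to 3 counts per library, or 0.312 to 1.10 CPM (counts relative to the size of the library) depending on its depth.

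RNA was sequenced from asynchronous HEK293FT cells, an established human embryonic kidney line, in 4 groups of 2 libraries. All cells, those behind the fractions included, had been transfected by Lipofectamine 2000 with a construct of lamin B1 and APEX2, a peroxidase that tags molecules close to it. Libraries came from the nuclear fraction, from the cytosol, from RNA recovered by APEX2 labelling at the nuclear lamina without fixation (native lamina), and from the same kind of recovery with paraformaldehyde (PFA lamina). RNA was taken up in Trizol and depleted of ribosomal RNA. The labels name no unlabelled or untransfected library, the promoter of the construct or the share of cells that took it up. They do not say whether replicates were separate cultures, so p-values measure only the spread between these libraries, which may be technical. Total counts ran from 2321291 (PFA 2) to 8557777 (native 1), and intervals and floors cover counting error only.

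Initiation loads a charged initiator tRNA onto the small ribosomal subunit through eIF2, brings the capped end of a messenger to it through eIF4E, eIF4G and the helicase eIF4A, and lets eIF3, eIF1 and eIF1A scan for the start codon. Elongation follows with eEF1A, which delivers charged tRNAs, the eEF1B complex, which recharges eEF1A with GTP, and eEF2, which moves the ribosome along. Many of these messengers begin with a C and a run of pyrimidines, the terminal oligopyrimidine (TOP) motif, through which mTOR signalling adjusts their translation. Kinases set the pace of both steps by phosphorylating eIF2 or eEF2.

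The start of a transcript is where the TOP motif lies, so 7 start sites are printed. They were picked from the elongation, eIF3 and eIF4 members that hold the motif searched below. Members without it, among them EEF1G, EIF4E and EIF4A1, are not printed, so the 7 do not stand for all members. Sequences are from the RefSeq promoter table of GRCh38.p14, in which 56 of the 73 members had an entry. Each line gives 20 bases on either side of the annotated start, 5′ to 3′ on the gene's strand. Capitals mark the unbroken pyrimidine run that begins with a C at the annotated start.
EEF1A1, chr6:73521013-73521052, minus strand: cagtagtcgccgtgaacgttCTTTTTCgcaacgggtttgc
EEF2, chr19:3985444-3985483, minus strand: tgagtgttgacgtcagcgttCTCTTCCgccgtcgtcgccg
EIF3F, chr11:7987317-7987356, plus strand: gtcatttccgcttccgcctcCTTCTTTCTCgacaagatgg
EIF3K, chr19:38619168-38619207, plus strand: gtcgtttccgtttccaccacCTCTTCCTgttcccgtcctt
EIF3D, chr22:36529147-36529186, minus strand: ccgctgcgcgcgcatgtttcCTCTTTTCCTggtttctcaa
EIF4B, chr12:53006436-53006475, plus strand: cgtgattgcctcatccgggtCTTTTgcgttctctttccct
EIF4A2, chr3:186783557-186783596, plus strand: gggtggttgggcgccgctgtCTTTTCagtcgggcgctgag

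The motif searched was a C at the annotated start followed by at least 4 bases that were each C or T, on the gene's strand only. It was present in 11 of the 56 members with an entry (19.6%) and in 1429 of all 35116 promoters in the table (4.07%). From a list of 10 members known to carry a TOP start, 6 had an entry and 4 held the run (EEF1A1, EEF2, EIF3F and EIF4B), while EEF1B2 and EEF1G did not at the start annotated here. A match describes these letters at an annotated position only.

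Markers of cell line and compartment were checked first. Markers of HEK293 lines (NEFM, NEFL, PAX2, VIM and KRT18) summed to 355 to 1779 CPM. VIM had the most counts of these in every library, and PAX2 had 0 to 38. Markers of the study's other lines summed to 24.0 to 51.8 CPM for HCT116 and 3.88 to 6.62 for K562. From the HCT116 list, CDX2 had 60 to 313 counts and VIL1 0 to 74. The sums are no test of the line. A list of 5 nuclear RNAs (MALAT1, NEAT1, KCNQ1OT1, SNHG1 and MEG3, the last with 1 count in all) summed to 13891 and 22981 CPM in the nuclear, 1051 and 1435 in the cytosolic, 6477 and 13706 in the native and 882 and 4273 in the PFA libraries. PFA library 1 thus lay below both cytosolic libraries. The header of cytosolic library 1 gives the output name of nuclear library 1 while its input is named as cytosolic, and its level of these RNAs was 1051 CPM against 13891 in nuclear library 1. As cytosolic messengers, GAPDH, ACTB, TUBB, LDHA and ENO1 were taken. These 5 summed to 1324 and 2346 CPM in the nuclear and 8162 and 13983 in the cytosolic libraries. They stood at 3345 and 3528 in the native and 4481 and 2653 in the PFA libraries.

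Member rows took 0.562% and 0.580% of all counts in the nuclear, 1.53% and 1.57% in the cytosolic, 1.25% and 1.28% in the native, and 1.14% and 1.14% in the PFA libraries. The widest 95% Wilson interval, that of PFA library 2, was 1.12% to 1.15%. The groups did not overlap: the nuclear libraries were lowest, the cytosolic highest, and all 4 lamina libraries lay between. This order was not tested, and between 2 groups of 2 libraries the smallest exact two-sided permutation p is 0.333. A share is of a library and not of a cell, and in bulk RNA fewer cells with a transcript and less of it per cell cannot be told apart.

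EEF2 alone held 13.5% to 33.3% of the members' counts. Per exonic length, in RPKM (normalised CPM per kilobase of exon), it was the highest member, with 243 and 381 in the nuclear, 1176 and 2024 in the cytosolic, 957 and 1162 in the native and 1001 and 950 in the PFA libraries. The next by mean RPKM over the 8 libraries were EIF1 (224), EEF1G (218), EIF4A1 (207), EIF4G1 (152), EIF4G2 (143), EIF5A (127) and EIF4A2 (122). Levels of single members per length are shown in the plot of RPKM by library.

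**Figure D1:**
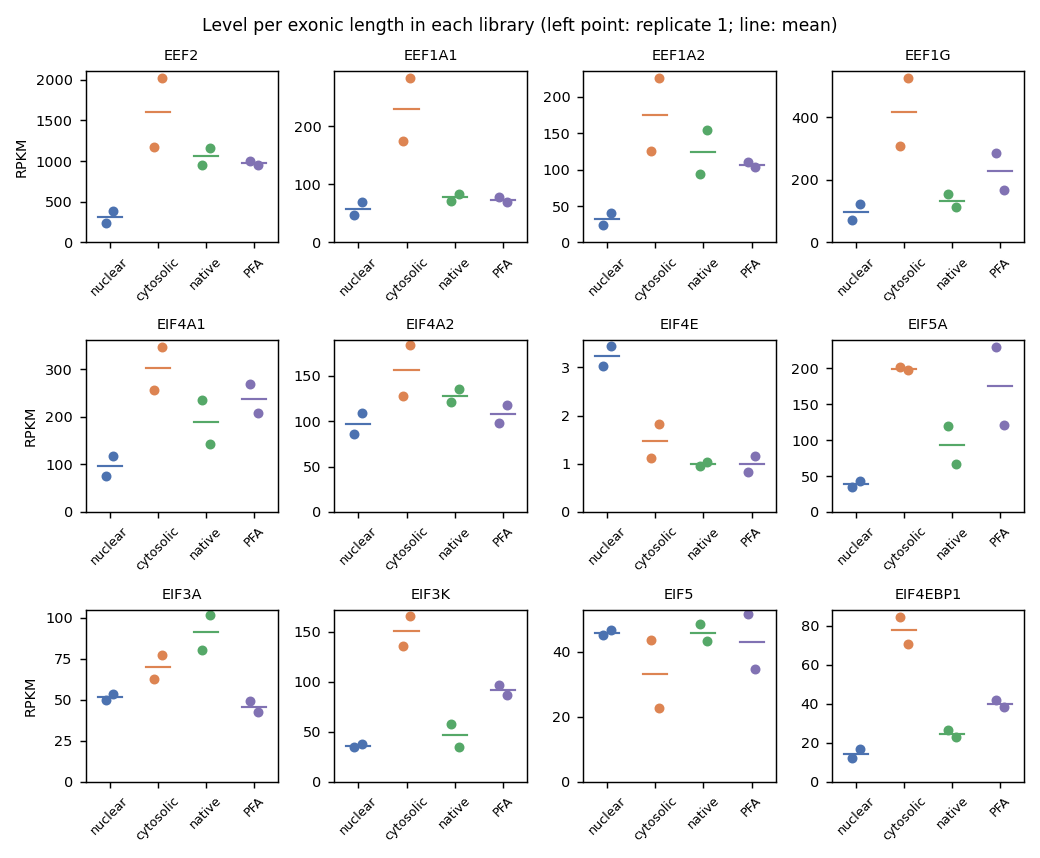
Level per exonic length (RPKM, vertical axis from 0) of 12 members in each library, by group (nuclear, cytosolic, native lamina, PFA lamina). Points are libraries, with replicate 1 to the left, and lines are means of 2 libraries. EEF2 runs from 243 to 2024 RPKM, and EIF4E is the member among these whose nuclear libraries (3.04 and 3.44) lie above all others.

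Most translation factor messengers made up a smaller share of the nuclear than of the cytosolic libraries. The comparison is of levels scaled to the library, and does not give how many copies of an RNA lie in each compartment. Lower or higher in the nucleus refers below to these scaled levels. By edgeR's quasi-likelihood test with Benjamini-Hochberg adjustment over all 16504 rows, 42 of 69 members were lower and 5 higher in the nuclear fraction at an adjusted p under 0.05. Over all rows tested, 21.2% were lower and 26.1% higher. The members' median log2 fold change (nuclear over cytosolic) was -1.09, against 0.13 for all rows, and it ran from -1.17 to -0.92 over the 4 pairings of a nuclear with a cytosolic library. Of the 50 tested members that are factors proper, 36 were lower and 1 was higher. The 5 cytosolic messengers outside the family were lower in 5 of 5 cases (median -2.57), so this direction is not particular to the members. Without nuclear library 1 or cytosolic library 2 fewer rows were called, among members and over all. The members' median was then -1.13 and -1.04. In the 8 fits that each left out 1 library, all 47 called members kept their sign, and 24 were called every time.

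Elongation factors were lower in the nucleus in 6 of 6 cases, with a median log2 fold change of -2.05. EEF2, which translocates the ribosome (hg19 chromosome 19, 3976054 to 3985461), had 769 and 1203 normalised CPM in the nuclear and 3713 and 6392 in the cytosolic libraries. The fractions did not overlap, and EEF2 was 5.12-fold lower in the nucleus (log2 -2.36, SE 0.42, edgeR adjusted p 0.0013). EEF1A2, the paralog of EEF1A1 known from neurons and muscle (chromosome 20, 62119365 to 62130668), had 47.3 and 82.3 CPM in the nuclear and 251 and 453 in the cytosolic libraries. It was 5.43-fold lower (log2 -2.44, SE 0.39, edgeR adjusted p 0.000864). EEF1A1, the main tRNA carrier (chromosome 6, 74225473 to 74230755), had 166 and 243 CPM against 614 and 998, a log2 fold change of -1.98 (SE 0.34). For each of these 3 genes both cytosolic libraries lay above both nuclear ones. Counts of EEF1A1 are uncertain because the gene has many processed pseudogenes.

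The eEF1B complex followed. EEF1G, its gamma subunit, had 108 and 187 CPM in the nuclear and 474 and 809 in the cytosolic libraries (log2 -2.12, SE 0.40), and EEF1B2 27.1 and 42.6 against 104 and 143 (log2 -1.82, SE 0.37). EEF1D, the delta subunit, was closest to 0 among the elongation factors, with 91.7 and 121 CPM against 135 and 235 (log2 -0.80, edgeR adjusted p 0.048). The groups of all 3 were apart, though nuclear 2 and cytosolic 1 of EEF1D were close.

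Subunits of the scaffold eIF3 covered a wide range. Of its 14 rows, 10 were lower in the nucleus, with a median of -1.48 for all 14. EIF3I had the lowest value of any member, with 37.4 and 43.0 CPM in the nuclear and 237 and 229 in the cytosolic libraries, 5.79-fold lower (log2 -2.53, SE 0.39, edgeR adjusted p 0.000801). EIF3H was at -2.16, EIF3K at -2.07 and EIF3F at -2.03, and the others called, from EIF3E to EIF3G, ran from -1.78 to -1.18. EIF3E was at -1.12 without cytosolic library 2 (edgeR adjusted p 0.093) and at -1.41 without nuclear library 1 (0.0796). EIF3A, the largest subunit and a core of the complex, had 264 and 284 CPM in the nuclear and 331 and 409 in the cytosolic libraries. These ranges did not overlap, yet the difference was not called (log2 -0.43, SE 0.29, edgeR adjusted p 0.231). EIF3J, a loosely attached subunit, was at -0.22 and not called either.

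The row of EIF3C could not be read as a subunit level. EIF3C and EIF3CL are near-identical copies whose rows share 6272 exonic bases, and both hold the same count in every library. Their mean level was 0.830 and 0.925 RPKM, while the other 12 subunits lay between 18.3 (EIF3J) and 108 (EIF3G). Reads that map to several places were not counted, per the file headers, and a read in both rows was counted for each. The log2 fold change of -0.18 is therefore uncertain.

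Among the eIF4 genes, the helicase EIF4A1 was lower in the nucleus and its near relative EIF4A2 was not called. EIF4A1 (chromosome 17, 7476024 to 7482324) had 143 and 222 CPM in the nuclear and 483 and 653 in the cytosolic libraries (log2 -1.64, SE 0.36, edgeR adjusted p 0.00319). All of its exonic bases also belong to the readthrough row SENP3-EIF4A1, from which its reads cannot be separated. EIF4A2 had 162 and 206 CPM against 242 and 348, a log2 fold change of -0.68 that was not called (SE 0.30, edgeR adjusted p 0.0745). EIF4A3, a helicase of the exon junction complex that is laid down on spliced RNA in the nucleus, had 86.4 and 92.3 CPM against 227 and 277 (log2 -1.49, SE 0.28). The helicase cofactors EIF4H and EIF4B were at -1.76 and -1.68. EIF4B was no longer called without nuclear library 1 or without cytosolic library 2 (edgeR adjusted p 0.0658 and 0.061).

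The scaffolds of the cap complex were at -1.49 for EIF4G2, which lacks the eIF4E site, at -0.93 for EIF4G1 and at 0.03 for EIF4G3. EIF4G1 had 722 and 556 CPM in the nuclear and 1431 and 1003 in the cytosolic libraries. Its call (edgeR adjusted p 0.0324) was lost with total counts (adjusted p 0.0503), upper-quartile factors (0.111) and a minimum of 10 counts in every library (0.0946). It was also lost without nuclear 1, nuclear 2 or cytosolic 1 (adjusted p 0.0737, 0.18 and 0.219). EIF4G3 had 242 and 172 CPM against 209 and 196, so its fractions overlapped (edgeR adjusted p 0.936).

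EIF4E, which binds the cap, was on the other side. It had 36.7 and 41.6 CPM in the nuclear and 13.6 and 22.2 in the cytosolic libraries, 2.20-fold higher in the nucleus (log2 1.14, SE 0.33, edgeR adjusted p 0.0134). Its row (chromosome 4, 99792835 to 99851788) holds 12096 exonic bases, the most of any member. With the trend of fold change on exonic length removed, EIF4E was at 0.67 and not called (adjusted p 0.101), and the call was also lost without nuclear library 1 (1.22, adjusted p 0.0516), nuclear library 2 (1.02, 0.0813) or cytosolic library 1 (0.80, 0.138).

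The cap-binding paralogs EIF4E2 and EIF4E3 were lower in the nucleus, at -1.08 and -1.24. EIF4EBP1, a repressor that holds eIF4E when mTOR is off, had 10.4 and 14.3 CPM in the nuclear and 72.7 and 60.9 in the cytosolic libraries (log2 -2.44, SE 0.30, edgeR adjusted p 0.000539). Its relative EIF4EBP2 had 92.3 and 95.2 against 190 and 190 (log2 -1.02, edgeR adjusted p 0.0157; 0.0604 to 0.0954 without any 1 of these 4 libraries). EIF4EBP3 was 2.83-fold higher in the nucleus (log2 1.5, SE 0.57, edgeR adjusted p 0.0448), but 74.7% of its exonic bases also belong to the readthrough row ANKHD1-EIF4EBP3, and its call was lost with total counts (adjusted p 0.069) and with the Wald test of DESeq2 (0.0567). Leaving out any fraction or native library ended the call as well (edgeR adjusted p 0.0584 to 0.26), with 1.14 without nuclear library 2.

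The subunits of eIF2, which carries the initiator tRNA, followed, with 2 of 3 called. EIF2S1, whose phosphorylation shuts initiation down, had 54.3 and 49.3 CPM in the nuclear and 158 and 161 in the cytosolic libraries (log2 -1.62, SE 0.32, edgeR adjusted p 0.00208). EIF2S3 was at -1.11 and called, though not without nuclear 1, nuclear 2 or cytosolic 2 (edgeR adjusted p 0.101, 0.0641 and 0.136). EIF2S2 was at -0.71 and not called (SE 0.31, edgeR adjusted p 0.074). The alternative factors EIF2A and EIF2D were at -1.19 and -1.09. Of the exchange factor eIF2B, EIF2B1, EIF2B2 and EIF2B3 were lower, at -0.96, -0.90 and -1.04, while EIF2B4 and EIF2B5, at 0.09 and -0.21, were not called. For EIF2B4 and EIF2B5 the fractions overlapped. EIF2B5 holds the catalytic site of eIF2B.

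Among the factors of the last steps, EIF6, which keeps the large subunit from joining too early, had 27.2 and 34.5 CPM in the nuclear and 89.3 and 77.0 in the cytosolic libraries (log2 -1.43, SE 0.32, edgeR adjusted p 0.00385; 0.0509 without nuclear 1). EIF5 and EIF5B, the GTPase activator and the GTPase of subunit joining, were at 0.47 and 0.22 and not called. EIF5 had 284 and 292 CPM in the nuclear and 275 and 141 in the cytosolic libraries, and cytosolic library 2 alone stood apart. EIF5A, the hypusine-bearing factor that frees stalled ribosomes, had 63.5 and 78.0 CPM against 367 and 358 (log2 -2.36, SE 0.38, edgeR adjusted p 0.000864). EIF5AL1 was at -2.46, but it is an intronless near-copy of EIF5A, so the split of reads between the rows is uncertain. EIF5A2, the scarce paralog at 3.26 to 8.69 CPM, was at -0.87 and not called (edgeR adjusted p 0.146). EIF1 and EIF1B, which guard start codon choice, were at -1.88 and -1.48 (EIF1B not called without nuclear 1 or cytosolic 2, edgeR adjusted p 0.0677 and 0.0647), while EIF1AX was at -0.25 and not called.

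**Figure D2:**
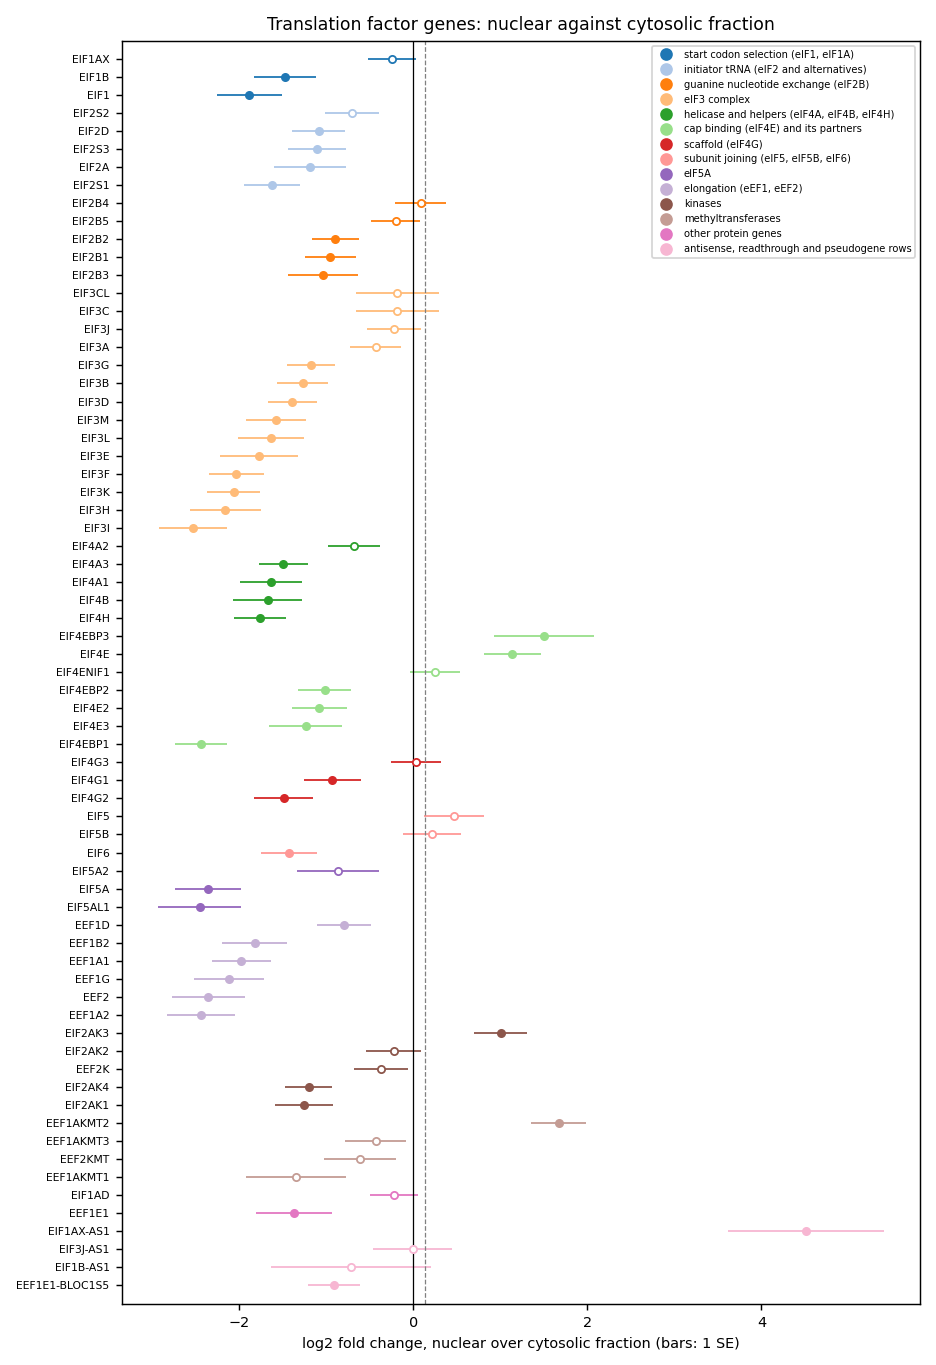
Log2 fold change of each tested member between the nuclear and the cytosolic fraction (horizontal axis; bars show 1 SE), grouped and coloured by role. Filled points passed the adjusted p, open points did not, and the dashed line is the median of all rows tested at 0.13. All 6 elongation factors lie at or below -0.80, and 5 filled points lie to the right of 0.

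Of the 5 kinases of eIF2 and eEF2, 1 was higher and 2 were lower in the nucleus. EIF2AK3, the kinase of endoplasmic reticulum stress known as PERK, had 36.9 and 52.7 CPM in the nuclear and 20.9 and 23.9 in the cytosolic libraries (log2 1.00, SE 0.31, edgeR adjusted p 0.0169). It was no longer called without nuclear 2 (0.70, adjusted p 0.162), cytosolic 1 (0.89, 0.111) or cytosolic 2 (1.08, 0.0638), and 16.2% of its exonic bases overlap LOC101928371 on the other strand. The amino acid sensor EIF2AK4 (GCN2) had 52.6 and 45.7 CPM against 110 and 116 (log2 -1.20, SE 0.27, edgeR adjusted p 0.00361). EIF2AK1, the haem-regulated kinase, was at -1.26 (edgeR adjusted p 0.00876; 0.0935 without nuclear 1 and 0.0708 without cytosolic 2). EIF2AK2 (PKR), the sensor of double-stranded RNA, was at -0.22 and EEF2K at -0.37, and neither was called.

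EEF1AKMT2, a lysine methyltransferase of eEF1A, had 37.0 and 45 CPM in the nuclear and 12.3 and 13.5 in the cytosolic libraries (log2 1.67, SE 0.31, edgeR adjusted p 0.00155). Both nuclear libraries lay above the other 6, and the lamina libraries had 9.42 to 12.5. The other 3 methyltransferases of eEF1A and eEF2 were not called. The antisense RNA EIF1AX-AS1 (chromosome X, 20158086 to 20158562) had 42 and 53 counts in the nuclear, 3 and 1 in the cytosolic, 13 and 13 in the native and 0 and 2 in the PFA libraries. Its nuclear level was 23.7 times the cytosolic one (95% interval of the counts 8.95 to 88.7). Strand was ignored in counting, so reads of EIF1AX in this stretch are included.

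The native lamina was compared with both fractions, which asks what the labelled RNA held beyond what each contained. Against the nuclear fraction, 4 of 69 members were higher and 2 lower, where 3.87% and 3.44% of all rows were (edgeR adjusted p under 0.05). The median was 0.36 against -0.07 for all rows, with 0.19 to 0.59 over the 4 pairings. At an unadjusted p under 0.05, 21 were higher and 4 lower. With total counts the split was 21 higher and 2 lower, where that scaling moved the median of all rows from -0.07 to 0.22 and the calls over all rows from 639 higher and 568 lower to 1656 and 237. Without any 1 of these 4 libraries fewer rows were called, among members and over all. The members' median was 0.27 without nuclear 1, 0.53 without nuclear 2, 0.31 without native 1 and 0.44 without native 2. The PFA libraries enter this comparison through the shared spread, the filter, the scaling and the adjustment, which were not told apart. Without PFA 1 and PFA 2 the members' median was 0.39 and 0.37.

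Of the 6 elongation factors, 2 were called. EEF1A2 had 189 and 308 CPM at the native lamina, against the 47.3 and 82.3 of the nuclear fraction (log2 1.94, SE 0.38, edgeR adjusted p 0.0164). EEF2 had 3021 and 3669 (log2 1.76, SE 0.41, edgeR adjusted p 0.0292), and both native libraries lay above both nuclear ones for each gene. EIF2AK4 had 125 and 133 CPM (log2 1.39, SE 0.27, edgeR adjusted p 0.0151), and EIF3G, a scanning subunit of eIF3, 140 and 145 (log2 0.99, edgeR adjusted p 0.0454). EEF1AKMT2 and EIF4E were lower than in the nucleus, at -1.91 (10.8 and 11.1 CPM) and -1.71 (11.4 and 12.5 CPM). EEF1A1 was at 0.41 with 252 and 292 CPM and not called (edgeR adjusted p 0.432). The nuclear RNAs stood at 6477 and 13706 CPM in the native and at 13891 and 22981 in the nuclear libraries, and their part in these values was not tested.

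Against the cytosolic fraction 13 members were lower and 0 higher at the native lamina, where 6.77% and 6.99% of all rows were. The median was -0.60 against 0.10 for all rows, from -0.74 to -0.41 over the pairings. At an unadjusted p under 0.05, 27 were lower and 3 higher, and DESeq2 called 18 lower and 0 higher. Subunits of eIF3 made up 6 of the 13: EIF3K (-1.70), EIF3F (-1.57), EIF3I (-1.50), EIF3H (-1.47), EIF3M (-1.46) and EIF3L (-1.28). Of EIF3M's exonic bases, 34.6% overlap CCDC73 on the other strand, and strand was ignored in counting. EIF6 had the lowest value, with 30.7 and 18.0 CPM against 89.3 and 77.0 in the cytosol (log2 -1.77, SE 0.33, edgeR adjusted p 0.00787). EEF1B2 (-1.68), EEF1G (-1.65) and EEF1A1 (-1.57) were lower as well, with EIF1B, EIF4EBP1 and EIF4A3. EEF2 and EEF1A2 were at -0.60 and -0.50 and not called. Of the 5 cytosolic messengers, 4 were lower than in the cytosol and 0 higher (median -1.70). Fewer rows were called without native 2, cytosolic 1 or cytosolic 2 and more without PFA 1 or PFA 2, among members and over all. The members' median was -0.55 without native 2, -0.69 without cytosolic 1 and -0.46 without cytosolic 2. Without PFA 1 and PFA 2 it was -0.63 and -0.60.

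The PFA lamina had 14 members above and 3 below their nuclear level by the same test, where 9.63% and 7.81% of all rows were. The median was 0.60 against -0.04. EIF5A had 417 and 221 CPM, above its 63.5 and 78.0 in the nucleus (log2 2.17, SE 0.38, edgeR adjusted p 0.00723). EIF3I had 182 and 89.0 CPM (log2 1.76, SE 0.39), EIF2S1 204 and 106 (log2 1.59, SE 0.32) and EIF4A1 504 and 390 (log2 1.29, SE 0.36). EEF1A2 was at 1.73 and EEF2 at 1.64, with 3160 and 2999 CPM. For each of these genes both PFA libraries lay above both nuclear ones, and PFA 1 was the higher of the pair. The others called were EIF5AL1, EIF4EBP1, EIF4H, EIF3K, EEF1G, EIF3F, EIF3D and EIF2B2, from 2.24 to 0.87. EEF1AKMT2 (-1.92) and EIF4E (-1.72) were lower, as was EIF1AX-AS1, whose nuclear level was 31.5 times that of the PFA lamina (95% interval of the counts 8.49 to 264.2).

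These counts depended on single libraries, and so did the calls over all rows. Fewer rows were called without nuclear 1, nuclear 2 or PFA 1 and more without PFA 2, among members and over all. The members' median ran from 0.17 to 0.84 over the pairings of a PFA with a nuclear library. It was 0.48 without nuclear 1, 0.65 without nuclear 2, 0.27 without PFA 1 and 0.79 without PFA 2. Without PFA 1, EIF3I was at 1.16, EIF5AL1 at 1.25, EIF2S1 at 1.05, EIF4A1 at 1.11, EEF1G at 0.83 and EIF3F at 0.85, none of them called. EIF4E was then at -1.47 and not called either. With only the 4 libraries compared, EEF2, EIF2S1, EIF4A1, EIF4EBP1, EEF1G and EIF3F were no longer called (edgeR adjusted p 0.0519 to 0.0865). EIF1AX-AS1, with 0 counts in PFA 1, was no longer called without that library (edgeR adjusted p 0.0535), and its fitted log2 fold change went from -4.79 to -3.36, or to -8.68 without PFA 2. The nuclear RNAs stood at 882 CPM in PFA 1 and at 4273 in PFA 2, and their part in these values was not tested. Of the 5 cytosolic messengers, 1 was higher at the PFA lamina than in the nucleus and 0 lower (median 0.79).

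Against the cytosolic fraction EEF1A1 was the member called at the PFA lamina, with 1 lower and 0 higher, where 0.145% and 0.527% of all rows were. EEF1A1 had 273 and 245 CPM against 614 and 998 (log2 -1.64, SE 0.34, edgeR adjusted p 0.0471), a call lost with DESeq2 size factors (adjusted p 0.0535) and without either nuclear library, either cytosolic library or PFA 2 (adjusted p 0.0688 to 0.289). The median was -0.52 against 0.08, and -0.78 to -0.15 over the pairings. At an unadjusted p under 0.05, 19 members were lower and 1 higher, and DESeq2 called 4 lower. Without PFA 1 the median was -0.77, and more rows were called lower, among members and over all.

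No member was called between the PFA and the native lamina (0 higher and 0 lower by edgeR, where 0% and 0% of all rows were). At an unadjusted p under 0.05, 6 were higher and 3 lower with PFA, and the Wald test of DESeq2 called 1 lower. Without PFA 2 the members' median was 0.40, and some rows were called, among members and over all. The median of 0.15 changed sign over the pairings, from -0.15 to 0.41. EIF6 had the highest value, 1.02, with 58.2 and 40.1 CPM against 30.7 and 18.0 (edgeR adjusted p 0.323). EIF3A, at -0.99, had 259 and 226 CPM against 426 and 541 (edgeR adjusted p 0.313), and EIF3K was at 0.99 (adjusted p 0.316). For these 3 genes the preparations did not overlap. By edgeR no member was higher than both fractions in either preparation, at 0 of 69 each, and none was at an unadjusted p under 0.05. Of all rows, 6.99% at the native and 0.527% at the PFA lamina were higher than the cytosolic fraction. The share of all rows above both fractions was not computed, so the 0 is not read as a result about the members. Both preparations were set against the same fraction libraries, so their values are given side by side and not correlated.

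**Figure D3:**
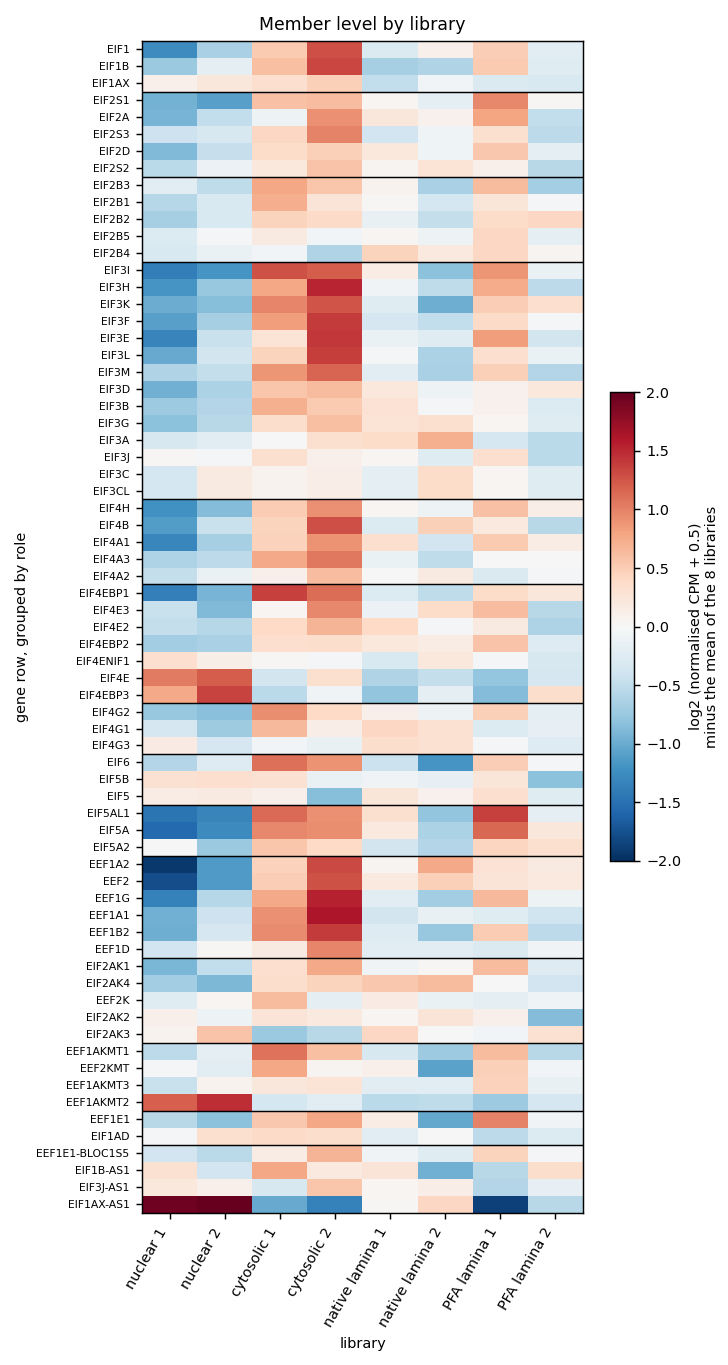
Level of the 69 tested members (rows, grouped by role) in each of the 8 libraries (columns), as log2 of normalised CPM plus 0.5 minus the row's mean. Colours stop at 2 in either direction. Most rows are lowest in the nuclear and highest in the cytosolic libraries, while EIF4E, EIF4EBP3, EEF1AKMT2, EIF1AX-AS1 and, narrowly, EIF5B are highest in the nuclear ones.

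Ratios of RPKM between paralogs give the members' balance within a library. EIF4A1 stood to EIF4A2 at 0.887 and 1.09 in the nuclear, 2.01 and 1.89 in the cytosolic, 1.96 and 1.06 in the native and 2.75 and 1.76 in the PFA libraries. The fractions did not overlap, while native 2 lay within the range of the nuclear libraries. EEF1A1 stood to EEF1A2 at 2.01 and 1.69 in the nuclear, 1.40 and 1.26 in the cytosolic, 0.762 and 0.541 in the native and 0.700 and 0.676 in the PFA libraries. EEF1A1 was thus the more abundant of the pair in all 4 fraction libraries and the less abundant in all 4 lamina libraries by these counts. Reads shared with the pseudogenes of EEF1A1 were not counted, so whether a ratio lies above or below 1 is uncertain. EIF4E2 stood to EIF4E at 2.29 and 1.90 in the nuclear, 11.5 and 8.57 in the cytosolic, 13.7 and 9.29 in the native and 13.2 and 5.47 in the PFA libraries, so the nuclear libraries stood apart from the other 6. The row of EIF4E has the most exonic bases of any member, and the size of this ratio depends on that length. Which of the pair is the more abundant is therefore uncertain, while the order of the libraries does not depend on length. EIF4EBP1 stood to EIF4EBP2 at 0.991 and 1.31 in the nuclear, 3.36 and 2.81 in the cytosolic, 1.16 and 1.03 in the native and 1.42 and 2.3 in the PFA libraries. The cytosolic libraries were highest, the PFA libraries next, and the native values lay within the nuclear range. These ratios were not tested.

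Exonic length was examined as a covariate of the members' fold changes. Across the 69 members, which are not replicates and share their libraries, Spearman's coefficient between exonic length and the log2 fold change was 0.409 for nuclear over cytosolic, 0.540 for native lamina over cytosolic and -0.490 for PFA over native lamina. Over all rows tested the same coefficient was 0.0665, 0.218 and -0.335. Removing a smooth trend of fold change on length, fitted over all rows, left 0.280, 0.230 and -0.137 among the members.

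Over all rows, 21.2% were lower in the nuclear fraction, 6.77% were lower at the native lamina than in the cytosol and 9.63% were higher at the PFA lamina than in the nucleus, not split by length. Of the 35 members up to the median of 2680 bases, 25 were lower in the nuclear fraction, and of the 34 longer ones 17. Against the cytosol, 12 of the short members but 1 of the long ones, EEF1A1, were lower at the native lamina. At the PFA lamina 11 short and 3 long members were higher than in the nucleus. With the trend removed, 43 members were lower and 4 higher in the nuclear fraction, 12 were lower at the native lamina than in the cytosol, and at the PFA lamina 14 lay above and 3 below the nuclear level. EIF4E left the higher group, and the native lamina had 8 higher and 2 lower members against the nucleus. Within the eIF3 complex EIF3K (893 bases) was at -2.07 and EIF3A (5305 bases) at -0.43, uncalled, between the fractions.

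**Figure D4:**
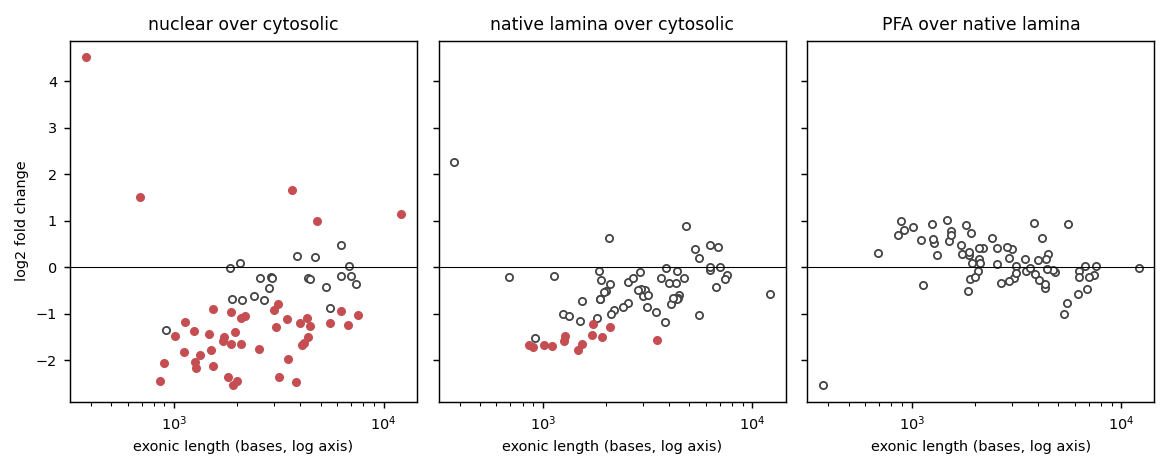
Log2 fold change (vertical axis, shared) against exonic length in bases (horizontal log axis) for the 69 tested members, in 3 comparisons. Red filled points passed the adjusted p and open points did not. In the middle panel the 13 called members lie at the short end except EEF1A1, and in the right panel no point is filled.

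Several members carry small nucleolar or Cajal body RNAs in their introns, whose rows lie in the same gene but not in its exons. There were 17 such rows in 10 member genes, of which 14 were tested. Between the fractions 11 of the 14 were higher in the nucleus and 0 lower by edgeR, where 26.1% and 21.2% of all rows were, with a median of 2.05 against -0.68 for the host genes of the same rows. No row was lower at an unadjusted p under 0.05 either, since the 14 values ran from 0.53 to 3.89. EIF4A1 holds SNORA48 (1.2), SNORD10 (2.1) and SNORA67 (1.99), all called higher, while its own row was at -1.64. SNORD10 had 693 and 765 counts in the nuclear and 283 and 82 in the cytosolic libraries. EIF4A2 holds 5, of which SNORD2 (1.53), SNORA63B (3.89), SNORA63 (1.91) and SNORA4 (1.88) were called higher and SNORA81 (0.53) was not. EEF2 holds SNORD37 (2.3) with 19 and 16 counts against 5 and 2, while EEF2 itself was at -2.36.

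At the lamina 3 of these 14 rows were below their nuclear level in the native and 5 in the PFA preparation, where 3.44% and 7.81% of all rows were, and 0 were above it by edgeR in either. SNORA63B (0.07) and SCARNA27 (0.03) at the native lamina had the only values above 0. Their medians were -1.23 and -1.60, and those of the hosts 0.40 and 0.15. SNORD10 was at -2.61 and -2.33, with 273 and 70 counts at the native and 174 and 39 at the PFA lamina. Reads of an unspliced host intron also fall in these rows, and the counts do not separate them from the mature small RNA.

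**Figure D5:**
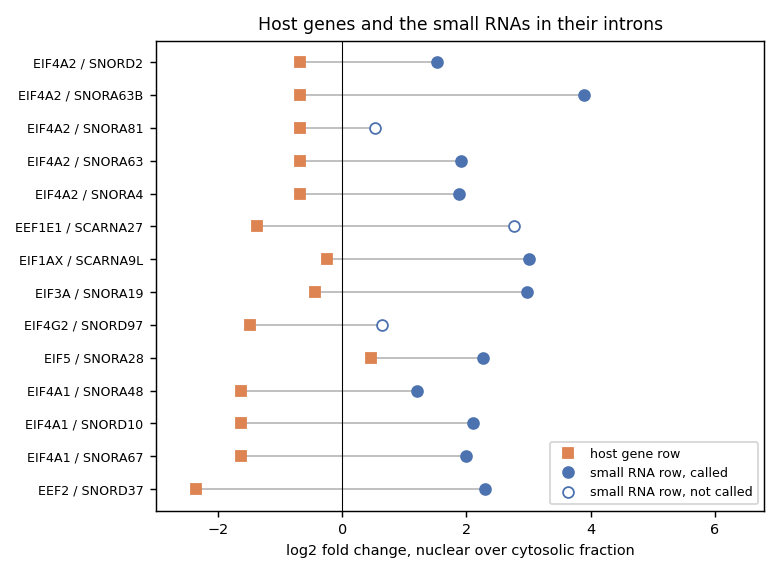
Log2 fold change between the nuclear and the cytosolic fraction (horizontal axis) for the 14 tested small nucleolar and Cajal body RNA rows (circles, filled where called) and for the host gene of each (squares), 1 line per pair. All 14 circles lie to the right of 0, and 13 of the 14 squares lie to the left.

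The start motif was set beside the fraction values. Of the 11 members with the run at the annotated start, 10 were lower in the nucleus, with a median of -1.58, and the exception was EIF4A2 (-0.68, not called). Of the 43 tested members with an entry and without the run, 24 were lower, with a median of -0.93. The list of 10 known TOP genes had 9 lower in the nucleus (median -1.90, EIF3A not called), 5 lower at the native lamina than in the cytosol and 3 higher at the PFA lamina than in the nucleus. Of all rows, 21.2%, 6.77% and 9.63% were called in these 3 ways. The known genes among them that lacked the run here, EEF1B2 and EEF1G, were at -1.82 and -2.12. These are counts over members chosen for their role and carry no test.

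Other genes of protein synthesis were counted from lists kept apart from the members, beside the 21.2% lower and 26.1% higher of all rows between the fractions and the 9.63% higher at the PFA lamina than in the nucleus. Cytosolic aminoacyl-tRNA synthetases and their scaffold proteins, which charge tRNAs for elongation, were lower in the nucleus in 19 of 22 cases and higher in 0 (median -1.25, values from -2.27 to -0.10). WARS was at -2.27, YARS at -2.15 and KARS at -2.08. At the PFA lamina 10 of the 22 were higher than in the nucleus and 0 lower (values from -0.28), led by VARS at 1.84. Of 30 regulators and partners of initiation, 14 were lower and 1 higher in the nucleus (median -0.84). PAIP2, an inhibitor of the poly(A)-binding protein, was at -1.87, and ABCE1, which recycles ribosomes, at -1.70. RPS6KB1, the S6 kinase downstream of mTOR, was the higher gene, at 0.74 (edgeR adjusted p 0.0458).

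Of 11 partners of elongation and termination, 6 were lower in the nucleus and 0 higher (median -1.10, highest value 0.43). ETF1, the release factor, was at -1.49 and GSPT1, its GTPase partner, at -1.29. At the PFA lamina 4 of the 11 were higher than in the nucleus, led by EEFSEC, the selenocysteine elongation factor, at 1.70. Of 10 nucleus-encoded factors of mitochondrial translation, 2 were higher and 1 lower in the nuclear fraction (median -0.34), which is no more than the 26.1% and 21.2% of all rows. TUFM, the mitochondrial counterpart of eEF1A, was at -1.14, and the release factor genes MTRF1L and MTRF1 were at 1.47 and 1.32.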

How the data were processed

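The authors deposited whole-number read counts per gene symbol for 8 libraries. Per the file headers, featureCounts 1.5.2 assigned the reads to a RefFlat annotation of hg19, ignored strand, let a read count for each gene it overlaps, and counted no read that maps to several places. TopHat2 2.1.1 and Bowtie2 2.3.2 are named in the submitters' processing notes.

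The test was that of edgeR 4.0.16 in R 4.3.3 on all rows (filterByExpr by group, TMM factors, quasi-likelihood test, 1 fit of 8 libraries with 1 coefficient per group, no block, Benjamini-Hochberg over 16504 rows in each of 6 comparisons). The fit was tested on simulated data. Normalised CPM uses TMM-scaled library sizes, and RPKM is that CPM per exonic kilobase. The length trend was a loess curve of span 0.5. The SE given is the size of the log2 fold change divided by the square root of the test's F statistic. It thus restates the test and is no separate measure of spread. A count of 3 was the floor. Total counts ran from 2321291 to 8557777, which sets the precision of low rows.

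Members and lists were chosen with earlier results of these data known. Every tested member was counted by role. Genes to name were drawn from the 5 highest and 5 lowest in each comparison, the 8 highest by RPKM and 24 fixed genes. Not every such gene is given in every comparison, and EEF1E1 and EIF3J-AS1 are left out. Others named were chosen after their values were seen. Same-numbered libraries were not treated as pairs. Alternatives were other scalings, filters and tools, a replicate block and leaving out each library. Domain lists of HCT116 cells are touched on at the end, and the other samples were not used here.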

Additional observations from a re-analysis of the deposited data

How the results depend on the processing

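No call of a named member turned its direction, but calls of named members were lost in some settings in every comparison that had any. Among 4378 recomputed values, 152 uncalled ones changed sign. Leaving out 1 library at a time, the number of members called ran from 25 to 50 for nuclear over cytosolic, from 0 to 22 for native lamina over nuclear and from 0 to 26 over cytosolic, from 0 to 35 for PFA lamina over nuclear and from 0 to 16 over cytosolic, and from 0 to 3 for PFA over native. The members' medians then ran from -1.18 to -1.04, 0.27 to 0.53, -0.69 to -0.46, 0.27 to 0.79, -0.77 to -0.36 and -0.15 to 0.40 in that order, and Spearman's coefficient with length from 0.351 to 0.432, -0.064 to 0.194, 0.415 to 0.539, -0.394 to -0.255, 0.207 to 0.337 and -0.490 to -0.331. Where a left-out library leaves 1 in a group, it is assumed to vary like the other groups.

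For native lamina over nuclear, 23 members were called with total counts (median 0.65), 16 with no filter, 14 with the Wald test of DESeq2, 10 with the length trend removed and 28 with only the 4 libraries compared. Over cytosolic it was 21 with only those 4 libraries, and the median with total counts was -0.27. For PFA lamina over nuclear the number was 26 with total counts or with no filter and 9 with only the 4 libraries. Over cytosolic it was 0 with DESeq2 size factors or the 4 libraries, 6 with no filter and 4 with the Wald test, which called 1 between the preparations. The nuclear over cytosolic median was -0.82 with upper-quartile factors, -0.89 with at least 10 counts in every library and -1.22 with the length trend removed. Its coefficient with length was 0.339 with no filter, 0.474 with that minimum and 0.280 without the trend. The coefficient for native over cytosolic was 0.458 with no filter and 0.230 without the trend, for PFA over cytosolic 0.269 and 0.196, and for PFA over native -0.137 without the trend. The cause of these changes was not tested.

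Counting factors proper only, the share of counts was 0.502% and 0.522% in the nuclear, 1.42% and 1.48% in the cytosolic, 1.16% and 1.19% in the native and 1.05% and 1.06% in the PFA libraries. Without the counts of LMNB1, the transfected gene, it was 1.37% and 1.32% in the native and 1.25% and 1.26% in the PFA libraries. The deviations of same-numbered libraries correlated at -0.0674 to 0.321 over the 6 comparisons, above 0.1 in 3 of them, and the labels do not say what a number shares, so libraries were not treated as pairs. With a replicate block the members called were 48 for nuclear over cytosolic, 9 and 17 for native over nuclear and cytosolic, 20 and 1 for PFA, and 0 between the preparations. Depth limits the lowest rows, since PFA library 2 has 2321291 counts.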

Other observations

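Lamina-associated domains were deposited for HCT116, a colorectal carcinoma line, in G1, S and G2, so they come from other cells than the RNA. Member rows touched a domain in 1 of 73 cases in G1 (1.37%, EIF1AY), in 0 in S and in 2 in G2 (2.74%, EIF1AY and EEF2KMT). Of all 27630 rows, 7.92%, 6.8% and 9.48% did. EIF1AY had no count in any library. EEF2KMT, which methylates eEF2 (hg19 chromosome 16, 5134301 to 5147821), shares 40.9% of its exonic bases with ALG1 on the other strand and was not called in any of the 6 comparisons.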
